A study of Mus musculus with 6 samples.

Results

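The genes described here encode the MYC, MAX and MXD transcription factor network: Myc, Mycn, Max, Mlx, Mxd1, Mxd3, Mxd4, Mxi1, Mnt and Mga. They were chosen by gene symbol in the platform annotation of the arrays. All 10 were found, each with 1 probe set, among 18784 genes measured. The arrays were run on RNA of cultured mouse B lymphoma cells of the genotype Arf-/-Eu-myc/Bcl-2. All cells therefore lacked the tumour suppressor Arf and carried the Eu-myc transgene, in which an immunoglobulin heavy chain enhancer drives MYC in B cells, as well as Bcl-2. They grew on feeder layers of irradiated Arf-/- mouse embryonic fibroblasts (MEFs). Of the 6 arrays, 3 were from cells transduced with the short hairpin RNA Rluc.713, a control named for Renilla luciferase, and 3 from cells with the hairpin Dhx9.1241, named for the RNA and DNA helicase gene Dhx9. The labels name no drug on these arrays, and they leave unsaid how many tumours the lymphoma cells stem from and whether replicate arrays are of separate cultures. If they are not, the spread behind the p-values below is technical, and in any case it is that of these arrays alone.

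MYC and its relative MYCN do not bind DNA alone. Each pairs with MAX, and the pair binds the E-box, the DNA letters CACGTG, and activates genes of growth and metabolism. The MXD proteins (MXD1, MXI1, MXD3 and MXD4) and MNT compete for MAX, bind the same letters and recruit the SIN3 corepressor with histone deacetylases, so they oppose MYC. MXD1 is best known for rising as blood cells stop dividing and differentiate. MGA pairs with MAX inside a Polycomb complex, and MLX is a MAX-like partner of MXD1, MXD4, MNT and the glucose-responsive factors MondoA and ChREBP. In Eu-myc lymphoma the network is driven from its MYC side.

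The promoters of the network genes were searched for the letters that the network's own proteins bind. RefSeq promoter windows (build GRCm38.p6, 250 bases before to 50 after a listed start) matched 9 of the 10 members, 11 windows in all, and Myc had none. CACGTG reads the same on both strands and stood in the window of 4 members, Max, Mlx, Mnt and Mxd4. The variant CACGCG, on the other strand CGCGTG, stood in that of Mga. Among all 32851 windows, 7.15% held CACGTG and 9.27% held CACGCG. Counted by gene, as the members are, the shares were 8.09% and 10.5% of 27025 genes. The windows of Mxd1, Mxd3, Mxi1 and Mycn held neither, which says only that these letters are not in these windows. Each site is printed 5′ to 3′ on the gene's strand with 10 bases on each side and the motif in capitals, to show where the network's letters lie in its own genes.
Max (chr12:76962236-76962261, minus strand, motif from base -3 of the start): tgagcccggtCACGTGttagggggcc
Mlx (chr11:101087240-101087265, plus strand, motif from base -40): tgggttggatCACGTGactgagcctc
Mnt (chr11:74830791-74830816, plus strand, motif from base -123): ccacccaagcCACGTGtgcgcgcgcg
Mxd4 (chr5:34187914-34187939, minus strand, motif from base -219): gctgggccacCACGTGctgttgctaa
Mga (chr2:119897197-119897222, plus strand, variant from base -21): ctggtaggagCGCGTGcgcagtgacg

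Mxd1 is the gene that changed below, and Mxd4 is a paralog that did not pass the test. The upstream stretches of both are shown so that their bases can be read directly. Only bases outside the annotated gene are given, 175 for Mxd1 and 250 for Mxd4, with the E-box of Mxd4 in capitals. The Mxd4 stretch reaches the listed start of its window, while the Mxd1 stretch ends short of it.
Mxd1 (chr6:86669235-86669409, minus strand): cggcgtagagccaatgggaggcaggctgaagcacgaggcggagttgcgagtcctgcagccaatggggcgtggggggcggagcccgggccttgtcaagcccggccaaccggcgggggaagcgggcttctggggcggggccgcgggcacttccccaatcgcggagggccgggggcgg
Mxd4 (chr5:34187711-34187960, minus strand): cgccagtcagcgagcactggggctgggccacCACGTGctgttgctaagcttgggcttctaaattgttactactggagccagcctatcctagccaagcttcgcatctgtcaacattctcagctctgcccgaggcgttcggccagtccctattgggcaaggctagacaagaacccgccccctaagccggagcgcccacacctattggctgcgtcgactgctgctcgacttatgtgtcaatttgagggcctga

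The deposited values are log2 levels made by robust multi-array average (RMA), and differences are given as Dhx9.1241 minus Rluc.713 on that scale. Dhx9 itself was lower by 0.99 (SE 0.053, adjusted p = 0.000129) in Dhx9.1241. Dhx29, the gene that the titles of the same arrays name in its place, stood at a difference of 0.04 (SE 0.053, adjusted p = 0.857), so the arrays are called by their hairpin. All 8 measured B cell markers, Cd79a, Cd79b and Pax5 among them, lay at or above the median level of all genes, against 4 of 12 fibroblast, 5 of 9 myeloid and 1 of 8 T and NK cell markers. Rluc.713 replicate 1 lay at 16.7 on principal component 2, away from the other control arrays at -4.81 and -5.29. On the same component Dhx9.1241 replicate 2 lay at 3.62, away from replicates 1 and 3 at -5.61 and -4.65. Component 2 held 34.4% of the variance and component 1 held 39.1%. At the threshold used throughout, a Benjamini-Hochberg adjusted p under 0.05 in limma, 3.14% of all genes were called: 389 (2.07%) with higher levels in the Dhx9.1241 arrays and 201 (1.07%) with lower ones.

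One member of the network rose in Dhx9.1241, the MYC antagonist gene Mxd1, and the other 9 did not pass the threshold in the limma test, with 0 lower. The call share of 1 in 10 rests on that single gene and is read against the 3.14% of all genes. Of the members, 3 had an unadjusted p under 0.05, all in the higher direction (Mxd1, Myc and Mxi1). Among all genes, 14.1% did in either direction and 8.502% in the higher one. The same 3 were the members whose groups of arrays did not overlap, against 20.1% of all genes in either direction 11.6% in the higher one and 8.51% in the lower one. The median difference of the 10 members was 0.03, and that of all genes 0.00489.

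**Figure D1:**
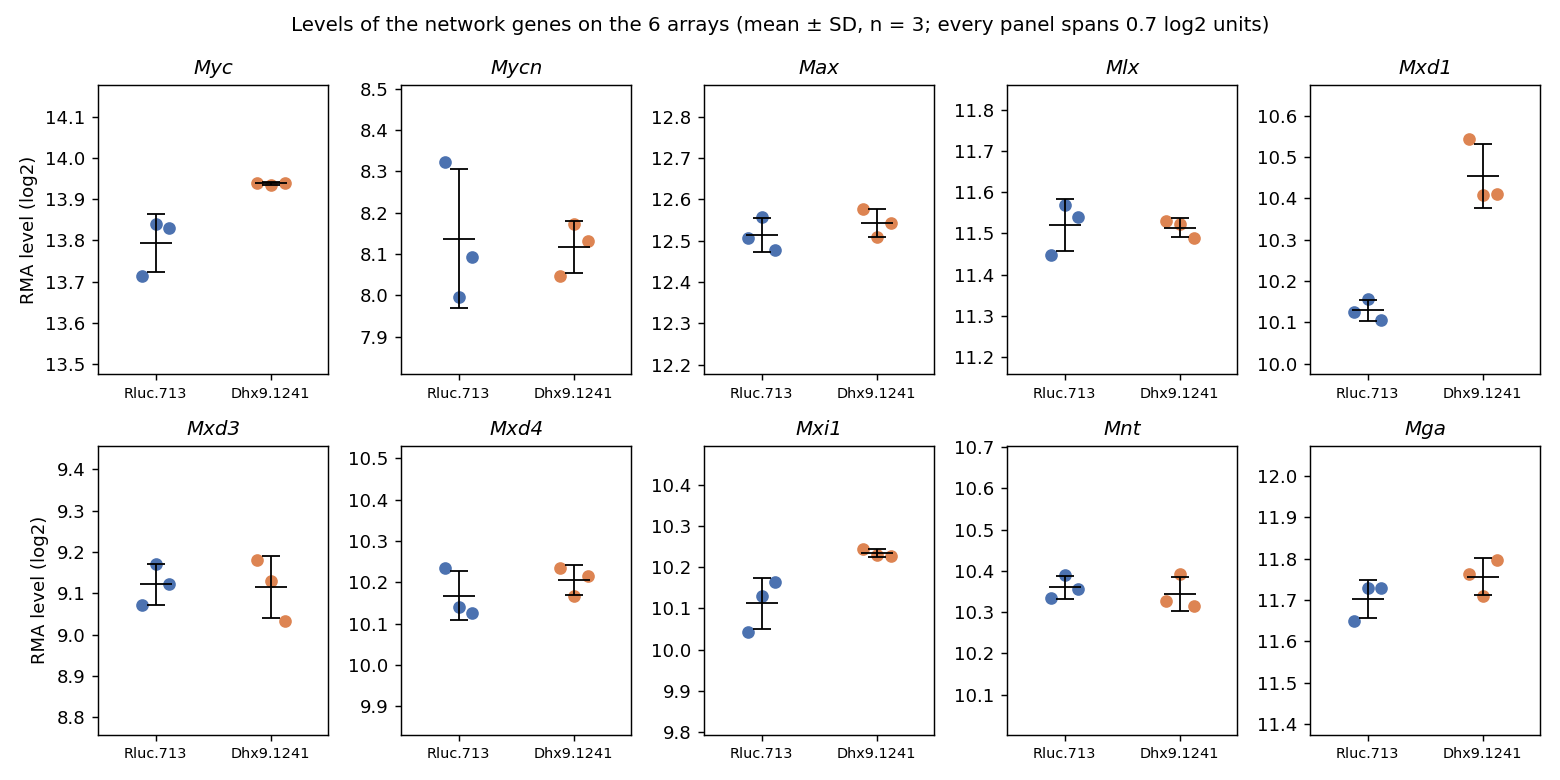
RMA level (log2, vertical axis) of each network gene on the 3 Rluc.713 (blue) and 3 Dhx9.1241 (orange) arrays, with the mean and SD as bars; every panel spans the same height. The groups are apart for Mxd1, Myc and Mxi1 and overlap in the other 7 panels, and the gap is widest for Mxd1, at 0.25.

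Among the antagonists, Mxd1 (probe set 17119_at) stood at 10.13, 10.16 and 10.11 on the Rluc.713 arrays and at 10.54, 10.41 and 10.41 on the Dhx9.1241 arrays. Every Dhx9.1241 array was above every control, with a gap of 0.25 between the groups, and Dhx9.1241 replicate 1 was the highest of all. The mean rose from 10.13 ± 0.025 to 10.45 ± 0.078 (SD, n = 3), which is 0.33 on the log2 scale or 1.25-fold, with an adjusted p of 0.0184 in limma, an SE of 0.055 and a 95% interval of 0.20 to 0.45. This change was larger in size than that of 97.5% of all genes. The call was retained without Rluc.713 replicate 1 (adjusted p = 0.0222). It was lost without Rluc.713 replicate 2 (0.0615) or replicate 3 (0.077), and without Dhx9.1241 replicate 1 (0.0785), replicate 2 (0.0568) or replicate 3 (0.0646), fits in which the log2 change lay between 0.28 and 0.35. Over all 15 alternative settings the change kept its sign and the call held in 9, with adjusted p from 0.00372 to 0.0785. Settings that only change the variance estimate or the genes tested leave the change as it was, so its sign could not turn there. Among the 9 is the mean over probe sets, which alters nothing for a gene with 1 probe set. Also among them is the fit without both Rluc.713 replicate 1 and Dhx9.1241 replicate 2, chosen after seeing the data.

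Mxi1 (17859_at), the MXD family member once called Mad2, stood at 10.04, 10.13 and 10.16 in Rluc.713 and at 10.24, 10.23 and 10.23 in Dhx9.1241. The groups did not overlap, by a gap of 0.06, and the SD of the Dhx9.1241 arrays was 0.00936. The difference of 0.12 (SE 0.050, 95% interval 0.01 to 0.24) did not pass, with an unadjusted p of 0.0419 and an adjusted p of 0.325. With each array centred on its median the Mxi1 groups overlapped, while those of Mxd1 and Myc did not. The probe set is paired with 3 RefSeq transcripts, so transcript forms of Mxi1 are not told apart.

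Mxd4 and Mxd3, the remaining MXD genes, had groups that overlapped. Mxd4 (17122_at) was at 10.24, 10.14 and 10.13 in Rluc.713 and at 10.23, 10.17 and 10.22 in Dhx9.1241, a difference of 0.04 (95% interval -0.08 to 0.16, adjusted p = 0.882). Mxd3 (17121_at), which unlike the others is known from dividing cells, was at 9.07, 9.17 and 9.123 against 9.18, 9.13 and 9.03, a difference of -0.01 (interval -0.14 to 0.12, adjusted p = 0.985). The highest and the lowest Mxd3 values were both in Dhx9.1241. Mnt (17428_at), the most widely expressed antagonist, was at 10.33, 10.39 and 10.36 in Rluc.713 and at 10.33, 10.39 and 10.31 in Dhx9.1241. Its difference was -0.02 (interval -0.13 to 0.09, adjusted p = 0.961), and the 2 groups spanned nearly the same range.

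Mxd1 was also set against each other member on the same array. The log2 ratio of Mxd1 to the other gene was higher on every Dhx9.1241 array than on every Rluc.713 array for all 9 partners. The rise of this ratio was 0.18 against Myc, 0.20 against Mxi1, 0.29 against Mxd4 and 0.35 against Mycn, the lowest and the highest being those to Myc and Mycn. Mxd1 was singled out by its change, which favours such an outcome, and no share over all genes stands beside the count. These ratios are therefore a description with no test. They show unequal change within arrays, not that the partner genes stayed constant.

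On the activator side, Myc (17869_at), the driver of these tumours, stood at 13.71, 13.84 and 13.83 in Rluc.713 and at 13.94, 13.93 and 13.94 in Dhx9.1241. All Dhx9.1241 arrays were above all controls, by a gap of 0.09, and Rluc.713 replicate 1 was the lowest. The means were 13.79 ± 0.071 and 13.94 ± 0.00312 (SD, n = 3), a difference of 0.14 (SE 0.052, 95% interval 0.02 to 0.26) or 1.104-fold, which did not pass (unadjusted p = 0.0241, adjusted p = 0.239). Without Rluc.713 replicate 1 the difference was 0.10. It passed in 1 of 15 alternative settings, limma fitted robustly with variances trended on level (0.0174 after adjustment), against 0.0913 to 0.596 in the others. The highest value on any array was 14.6, so Myc lay near the upper end of the scale. Whether this probe set reads the Eu-myc transgene, the endogenous gene or both was not tested.

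Mycn (18109_at), which can replace Myc in early lymphoid cells, stood at 8.32, 7.995 and 8.09 in Rluc.713 and at 8.05, 8.17 and 8.13 in Dhx9.1241. It was the only member below the median level of all genes, and it had the widest spread among the controls, with Rluc.713 replicate 1 the highest. The difference of -0.02 (SE 0.084, 95% interval -0.21 to 0.17, adjusted p = 0.974) turned to 0.07 without that array, and did not pass either way. Mycn therefore had the least precise estimate of the 10.

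The shared partners overlapped between groups. Max (17187_at), the obligate partner of MYC and of the MXD proteins, was at 12.51, 12.56 and 12.48 in Rluc.713 and at 12.58, 12.51 and 12.54 in Dhx9.1241, a difference of 0.03 (95% interval -0.08 to 0.14, adjusted p = 0.913). Mlx (21428_at) was at 11.45, 11.57 and 11.54 against 11.53, 11.52 and 11.49, a difference of -0.01 (interval -0.12 to 0.11, adjusted p = 0.988). Mga (29808_at), the scaffold of the MAX-containing Polycomb complex, was at 11.65, 11.73 and 11.73 against 11.76, 11.71 and 11.80, a difference of 0.05 (interval -0.06 to 0.17, adjusted p = 0.781). For all 3 genes some Dhx9.1241 array lay inside the range of the controls.

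**Figure D2:**
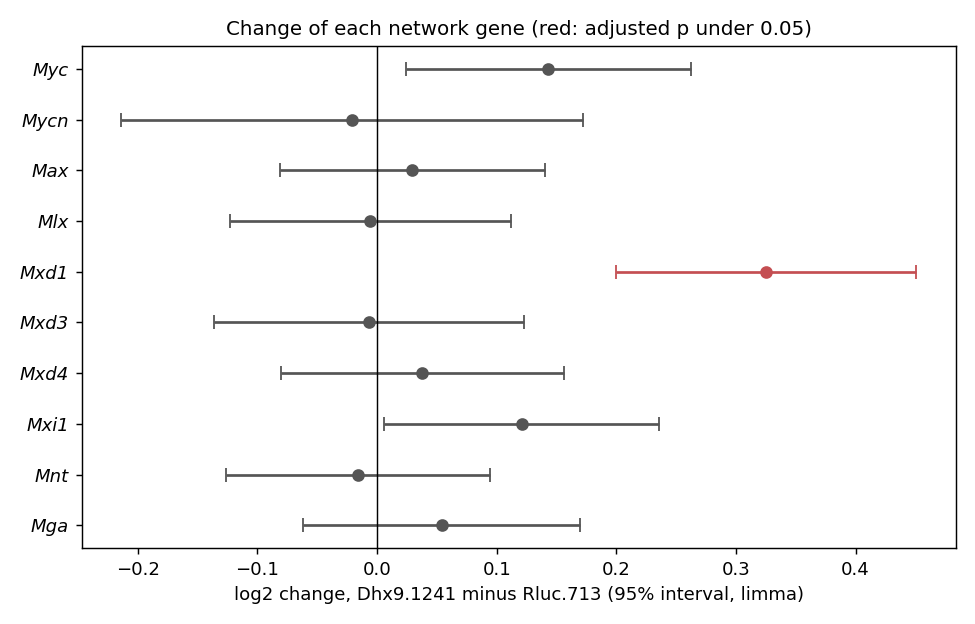
Log2 change (horizontal axis, Dhx9.1241 minus Rluc.713) of each network gene with its 95% interval from limma over 3 arrays a group. Mxd1, in red, passed at an adjusted p of 0.0184; the intervals of Myc and Mxi1 lie above 0 before adjustment, and the other 7 include it.

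Among the 9 members that did not pass, 7 differed by less than 0.06 on the log2 scale, the most being 0.0543 for Mga, and the median absolute difference over all genes was 0.0537. Their 95% intervals bound what these arrays can show. Over all 9, the upper bounds reached 0.26, a 1.20-fold increase, for Myc, and the lower bounds reached -0.21, a 1.16-fold decrease, for Mycn. The intervals leave room for changes of that size.

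**Figure D3:**
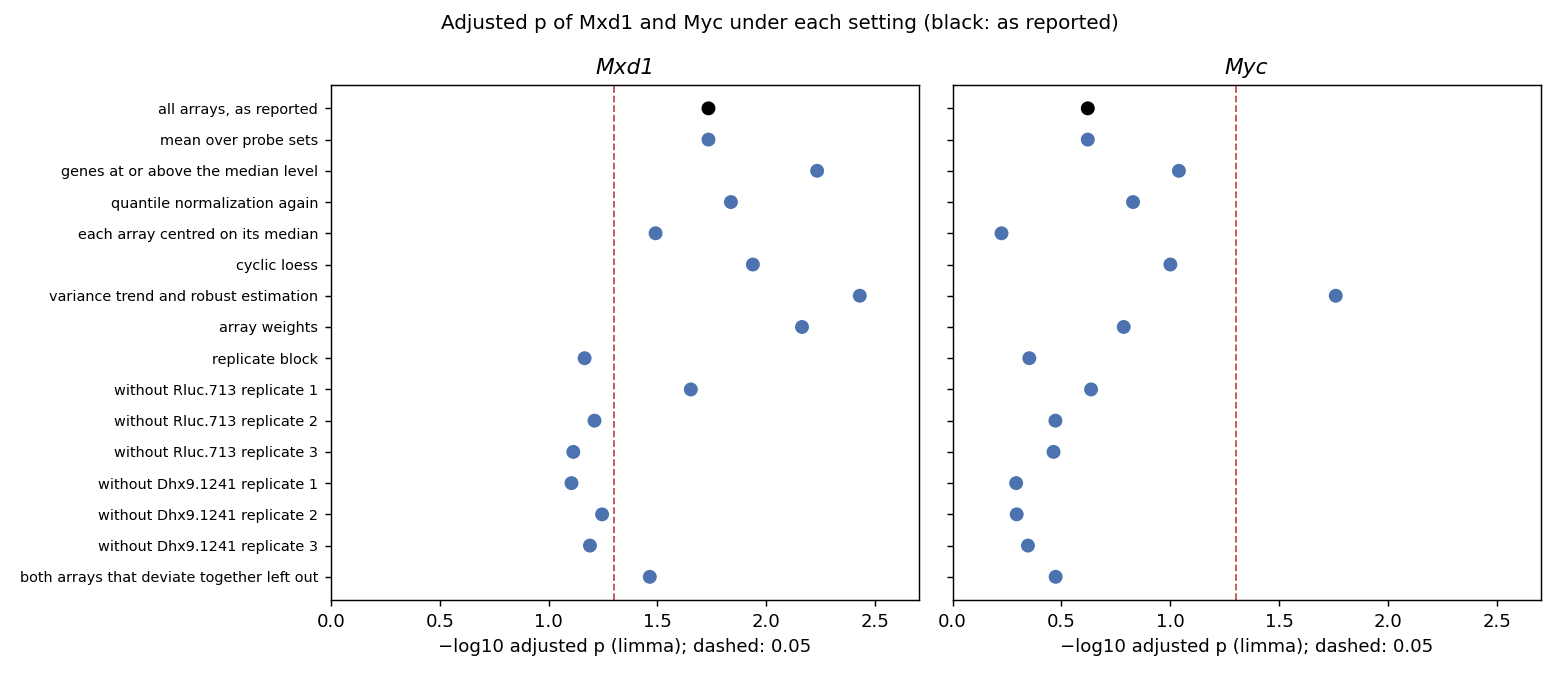
Adjusted p (horizontal axis, −log10 scale, dashed line at 0.05) of Mxd1 and Myc for all arrays (black) and under 15 other settings (blue). Mxd1 lies beyond the line in 9 settings and short of it in 6, whereas Myc lies beyond it in 1.

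The genes whose pattern over the 6 arrays was most like that of Mxd1 were Lpxn, which encodes the adhesion adaptor leupaxin (Pearson r = 0.998), the orphan receptor gene Gpr180 (0.996) and the kinase gene Fam20b (0.996). Their log2 differences were 0.17 (adjusted p = 0.123), 0.12 (0.274) and 0.32 (0.0163). The points are only 6 arrays that fall into 2 groups, and 302 genes had r above 0.95, so the likeness is a description. Myeloid cells are known to express Mxd1 as they mature. Of 9 measured myeloid markers, 4 fell (Lyz2, Csf1r, Tyrobp and Fcer1g) and 5 did not pass, where 3.14% of all genes were called. Among those 5, Itgam and Fcgr3 stood at 0.21 (adjusted p = 0.152) and 0.22 (0.0972), each higher on every Dhx9.1241 array. Mpo stood at -0.12 (0.344) and was lower on every Dhx9.1241 array, while Cd14 stood at -0.17 (0.436) and Adgre1 at -0.01 (0.981). Groups did not overlap for 5 of the 9 in the lower direction and 2 in the higher one, next to 8.51% and 11.6% of all genes. The mean log2 level of the 9 ran from 9.14 to 9.21 in Rluc.713 and from 8.89 to 8.95 in Dhx9.1241. Without Lyz2, which had the largest change at -1.31, it ran from 8.95 to 9.04 and from 8.85 to 8.89. B cell markers ran from 12.25 to 12.34 and from 12.17 to 12.23. Of these 8, 1 fell, Vpreb3 at -0.57, the largest change of the list. The B cell mean was not taken without Vpreb3, so its range is not read as a shift of the other markers. Groups did not overlap for 5 of the 8, 4 lower and 1 higher, the last being Ms4a1 at 0.31 (adjusted p = 0.0717). Among all genes, 20.1% had groups without overlap, 8.51% lower and 11.6% higher. Fibroblast markers ran from 7.82 to 7.98 and from 7.81 to 7.84, with 1 of 12 lower (Cav1), and T and NK cell markers from 8.002 to 8.07 and from 8.04 to 8.08, with 0 of 8 called. The part of other cells in the network's levels was not tested. In a bulk sample, fewer cells of a type and less RNA per cell cannot be told apart.

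Around the network, 9 lists of cofactors, regulators and target genes held 126 measured genes. Of these 3 rose and 1 fell, 3.17% in all, next to the 3.14% called among all genes, and the median difference was -0.01.

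In the SIN3 complex, through which MXD proteins repress, 1 of 11 measured genes fell and 10 did not pass. Among all genes, 1.07% fell. The gene that fell was Hdac1, a class I histone deacetylase. It stood at 12.77, 12.79 and 12.84 in Rluc.713 and at 12.41, 12.48 and 12.56 in Dhx9.1241, with no overlap. Hdac1 was 1.25-fold lower, -0.32 on the log2 scale with an SE of 0.055, and its adjusted p was 0.0194. The call was lost without Rluc.713 replicate 2 (0.0735) or replicate 3 (0.0821) and without Dhx9.1241 replicate 1 (0.0982) or replicate 2 (0.0847). Mouse has an annotated Hdac1 pseudogene, and whether the probe set also reads it was not tested. The scaffold genes Sin3a and Sin3b differed by less than 0.01, and the list median was -0.04.

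Of 17 genes acting on MYC protein turnover, 1 rose and 16 did not pass, where 2.07% of all genes rose. Btrc, which encodes a substrate receptor of an SCF ubiquitin ligase, rose from 11.55 ± 0.026 to 11.80 ± 0.025 (SD, n = 3), a log2 change of 0.26 (SE 0.046, adjusted p = 0.0245). Its call was retained without Rluc.713 replicate 1 (0.021). It was lost without any 1 of the other 5 arrays (0.0833 to 0.12) and when arrays were centred on their medians (0.0753). The ligase gene Skp2 stood at 0.21 (adjusted p = 0.0577) and passed in 4 of 15 alternative settings, the fit without Rluc.713 replicate 1 (0.0359) among them. Fbxw7, the receptor that marks phosphorylated MYC for destruction, stood at -0.03 (adjusted p = 0.933). The list median was -0.01.

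None of 40 measured genes that MYC activates passed in either direction in the limma test. Before adjustment, 3 of them were lower at a p under 0.05 and 0 were higher, where 5.63% of all genes were lower and 8.502% higher. Of the 40 differences, 14 lay above 0 and 26 below, against 9860 above and 8924 below among all 18784 genes. Groups did not overlap for 10 of the 40, 9 lower and 1 higher. Among all genes, 8.51% were lower without overlap and 11.6% higher. Cdc25a, a phosphatase that advances the cell cycle, had a difference of -0.15 (SE 0.052, adjusted p = 0.202) and Bcat1, a branched-chain amino acid transaminase gene, one of -0.15 (SE 0.046, adjusted p = 0.156). Bcat1 passed in 2 of 15 alternative settings and Cdc25a in 1, the robust trended fit for both and the restriction to genes of at least median level for Bcat1. The median of the list was -0.01 and the differences ran from -0.15 to 0.11.

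Of 12 genes that MYC represses, 2 rose and 10 did not pass, where 2.07% of all genes rose and 1.07% fell. Cdkn1a, which encodes the cell cycle inhibitor p21 and is a target of p53 as well, stood at 11.81, 11.999 and 12.03 in Rluc.713 and at 12.37, 12.46 and 12.41 in Dhx9.1241. It rose by 0.47 (SE 0.067, adjusted p = 0.00954), and the call was lost without Dhx9.1241 replicate 3 (0.0545). Ndrg1, a gene that also responds to hypoxia, stood at 8.92, 8.93 and 8.83 against 9.27, 9.35 and 9.20. It rose by 0.38 (SE 0.058, adjusted p = 0.0128), with the call lost without Rluc.713 replicate 3 (0.0522) or Dhx9.1241 replicate 1 (0.0661) or replicate 2 (0.0576). The kinase inhibitor gene Cdkn2c stood in the opposite direction at -0.33 (adjusted p = 0.0572). It passed as lower in 7 of 15 alternative settings (adjusted p 0.0146 to 0.186 over all), among them both quantile normalization again and cyclic loess, and the fit without Rluc.713 replicate 1 (0.0272). The list median was 0.07, with 8 differences above 0 and 4 below. Of all 18784 genes, 9860 lay above 0 and 8924 below.

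The other lists had no call in either direction in the limma test. Among 17 MYC coactivators and partners, with none under an unadjusted p of 0.05, Bptf stood at 0.11 (adjusted p = 0.476) and the elongation kinase gene Cdk9 at -0.08 (0.773). Among 9 genes of the MGA and MAX Polycomb complex, with 1 higher before adjustment, Cbx3 stood at -0.12 (0.492) and Rybp at 0.12 (0.297). Among 13 genes that act on the Myc promoter or mRNA, with 1 lower before adjustment, the RNA-binding protein genes Hnrnpc and Syncrip stood at -0.32 (0.0644) and -0.12 (0.404). Hnrnpc passed in 6 of 15 alternative settings (adjusted p 0.00901 to 0.219 over all), among them quantile normalization again and cyclic loess. The remaining network genes Mycl, Mlxip and Mlxipl stood between 0.01 and 0.07, and the MLX and MondoA targets Txnip and Arrdc4 at 0.12 (0.464) and 0.05 (0.845), with none of 3 and none of 4 under an unadjusted p of 0.05.

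**Figure D4:**
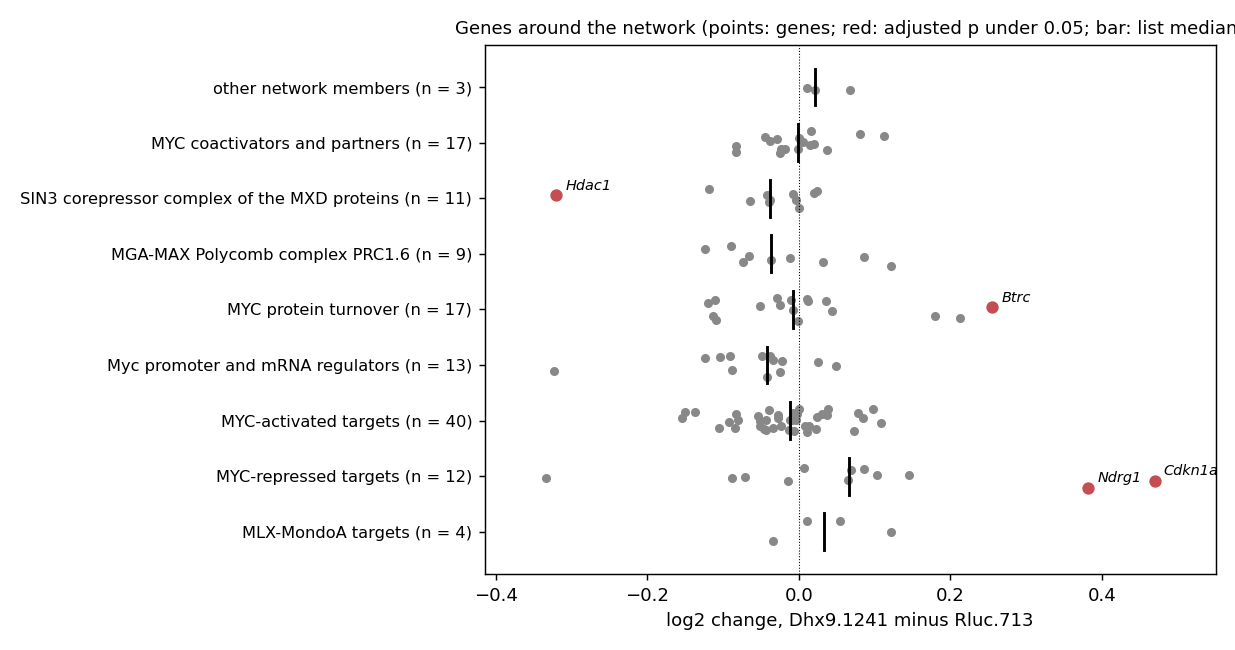
Log2 change (horizontal axis, Dhx9.1241 minus Rluc.713) of every measured gene in 9 lists around the network; each point is a gene, red points passed at an adjusted p under 0.05 and black bars are list medians. The 4 red points are Hdac1 (-0.32), Btrc (0.26), Ndrg1 (0.38) and Cdkn1a (0.47), and the list medians lie between -0.04 and 0.07.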

How the data were processed

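RNA was labelled with a 3′ in vitro transcription kit and hybridised to Affymetrix arrays, per the labels' protocols. RMA, which normalizes arrays together and tends to compress small folds, gave the authors' deposited log2 levels, per the submitters' processing notes. Its version and any genome build were not given in the sources read. Of 21212 probe sets, 18786 had 1 gene symbol, 6 had several and 2420 are unnamed here; symbols were updated by Entrez number for 18775. With the brightest probe set per gene (2 genes had several), 18784 genes were tested. The fit was Dhx9.1241 against Rluc.713 in limma 3.58.1 (R 4.3.3) without covariates, two-sided, with Benjamini-Hochberg adjustment over all genes and a threshold of 0.05. It was tested on simulated data. The members and lists were chosen with earlier results of these data known, and 9 of 135 list genes were not analysed here. Named were all members, Dhx9, Dhx29, up to 4 called genes a list (or the 2 with the largest change) and the 3 genes most like Mxd1. Skp2, Fbxw7, Sin3a, Sin3b, Cdkn2c, Mlxip and the cell markers were named beyond that rule, after their values were seen. The alternatives are in the closing section. The number of arrays, 3 a group, limits the precision. Each group carried only its own hairpin, so an effect of lower Dhx9 and another effect of a hairpin cannot be told apart.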

Additional observations from a re-analysis of the deposited data

How the results depend on the processing

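All network members kept their direction under the 15 alternatives except Mycn, Mxd3 and Mlx, whose differences lay around 0; their signs turned in 4 of 14, 2 of 15 and 3 of 15, never at an adjusted p under 0.05. Settings that only change the variance estimate or the genes tested leave each difference as it was, so no sign could turn there. Dhx9 was called in all 15. The count of members that rose, 1 with all arrays, was 2 in a robust fit with trended variances (Mxd1 and Myc) and 0 with the replicate block; leaving out 1 array gave 0 to 1. Members without overlap, 3 higher and 0 lower, were 3 to 4 and 0 to 1 with 1 array left out. They were 5 and 2 without both Rluc.713 replicate 1 and Dhx9.1241 replicate 2, whose deviations correlated at 0.48. That alternative was chosen after seeing the data and has fewer arrays to overlap. No share of all genes stands beside these counts, so they are not read as a result about the members. Over all genes, 389 higher and 201 lower became 609 and 382 when genes under the median level were left out, 673 and 466 in the robust trended fit, 669 and 542 when arrays were weighted, and 172 and 92 with the replicate block. The lower count was 360 after quantile normalization again and 345 after cyclic loess, and the higher count 250 with each array centred on its median. With 1 array left out they ran from 126 to 497 and from 70 to 399. In the pathway lists together, 3 higher and 1 lower, the lower count was 4 without genes under the median level, 6 in the robust trended fit, 3 after quantile normalization again, cyclic loess or array weights, 2 without both arrays and 0 with the replicate block. With 1 array left out the counts were 1 to 4 and 0 to 3. The labels do not say whether the replicate numbers pair the arrays. Deviations of same-numbered arrays correlated at -0.27, -0.34 and 0.24, and with 3 arrays a group these values cannot settle it. The Mxd1 change was 0.33 with the block, at an adjusted p of 0.0683, and the block also took the calls of Hdac1 (0.0556) and Btrc (0.104). Fits without an array have fewer samples; the causes of the other shifts were not tested.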
